A study of Mus musculus with 6 samples.

Results

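The 53 genes described here encode proteins that sense DNA damage or repair it, and they were followed at the mRNA level in mouse articular chondrocytes, the cells that build and maintain joint cartilage. They were taken from the gene table by symbol, from a list of known damage signalling and repair factors. The list uses no measured value, but it was chosen with earlier results of these data known. The gene table lists 24532 genes, of which 14223 had at least 1 read in every library and were tested, and all 53 repair genes were among them. The fewest reads for any of them in any library was 69. One group of cells received *Sephs1* siRNA (n = 3 libraries) and the other received negative control siRNA (n = 3 libraries), the series naming these libraries biological replicates. Both groups were primary cultures of ICR chondrocytes taken from 5-day-old mice and held at 3% O2. Each received 50 nM siRNA for 12 h in 2 rounds, with 48 h in fresh medium afterwards. *Sephs1* encodes a protein related to selenophosphate synthetase, and the study asked what its loss does to the redox balance and DNA integrity of chondrocytes. Transient siRNA leaves part of the target mRNA in place, and effects of the siRNA sequence itself cannot be told apart from loss of *Sephs1* with 1 treatment.

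Broken or stalled DNA is first recognised by the kinases ATM and ATR, which phosphorylate the histone variant H2AX around the lesion and pass the signal to the checkpoint kinases CHK1 and CHK2. Double-strand breaks are then rejoined either directly, by end joining, or by copying the sister chromatid in homologous recombination, a route open only after replication. The Fanconi anemia proteins release crosslinked strands, base excision repair removes oxidised or deaminated bases, mismatch repair corrects replication errors, and nucleotide excision repair cuts out bulky adducts. Much of this work is controlled by phosphorylation and ubiquitylation, so mRNA levels report the supply of the factors and not their activity. Many recombination and Fanconi genes are also transcribed mainly in S and G2 phase, so that their mRNA is more abundant in cultures with more dividing cells.

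Depth ran from 62316889 to 71080135 reads in the *Sephs1* siRNA libraries and from 58214060 to 80887889 reads in the control libraries. *Sephs1* stood at 36.1, 24.9 and 21.5 CPM (read counts scaled by library size with the TMM method of edgeR) in *Sephs1* siRNA replicates 1, 2 and 3, against 50.7, 44.7 and 44.7 CPM in the control replicates. The groups did not overlap, and the log2 fold change was -0.76 ± 0.19 (standard error, SE), with an edgeR adjusted p of 0.392, or 0.04 when replicate number entered as a block. In the replicate pairs 1, 2 and 3 it was -0.49, -0.84 and -1.05. Of 17 listed chondrocyte markers, 15 were found and tested, and their summed level was 19436 to 23926 FPKM (fragments per kilobase of transcript, scaled to library size) with *Sephs1* siRNA and 20196 to 26009 FPKM with control siRNA. Fibroblast markers summed to 6207 to 6612 FPKM with *Sephs1* siRNA and 6023 to 6942 FPKM with control siRNA. Osteoblast markers, 7 of 9 tested, summed to 720 to 872 FPKM with *Sephs1* siRNA and 629 to 693 FPKM with control siRNA. Most of that sum was *Spp1*, at 710 to 855 FPKM with *Sephs1* siRNA and 607 to 677 FPKM with control siRNA. Of the 7 tested, 4 had a negative and 3 a positive log2 fold change, with a median of -0.19. With the block, the chondrocyte marker *Col9a1* (edgeR adjusted p = 0.0446), the fibroblast markers *Col1a2* (0.0251) and *Postn* (0.0385) and the osteoblast marker *Alpl* (0.0183, log2 fold change -1.27, groups not overlapping) fell, and the fibroblast marker *Dcn* (0.0392) rose. At an unadjusted p under 0.05 in that fit, 8 of the 15 chondrocyte markers were lower and 2 higher. Of the 10 fibroblast markers 5 were lower and 4 higher, and of the 7 osteoblast markers 3 were lower and 2 higher. Of all genes tested, 11.2% were lower and 13.1% higher. Macrophage and leukocyte markers, 5 of 13 tested, summed to at most 8.43 FPKM in a *Sephs1* siRNA library and 7.86 FPKM in a control library. In bulk RNA, fewer cells of a type and less RNA per cell cannot be told apart.

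None of the 53 repair genes passed an adjusted p of 0.05 from edgeR without the block, at which 0.0141% of all genes tested were called. Their log2 fold changes (*Sephs1* siRNA over control siRNA) had a median of 0.15, beside 0.01 over all genes tested, and 42 were positive and 11 negative. That is 79.2% positive, beside 52% of all genes. At an unadjusted p under 0.05, 5 repair genes were higher with *Sephs1* siRNA, or 9.43%, beside 4.98% of all genes tested. At the same threshold 1 was lower, or 1.89%, beside 3.63% of all genes. The higher ones were *Mdc1*, *Palb2*, *Fancd2*, *Fanci* and *Neil3*, and the lower one was *Apex1*. DESeq2 called 1 repair gene at an adjusted p under 0.05, *Fanci*, which was higher with *Sephs1* siRNA (log2 fold change 0.63, adjusted p = 0.0278), where it called 1.03% of all genes as higher.

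Same-numbered libraries of the 2 groups varied together, and blocking the fit on that number gave more calls. With the block, 16 repair genes were higher at an unadjusted p under 0.05 (30.2%, beside 13.1% of all genes tested) and 3 were lower (5.66%, beside 11.2%). The higher ones were 5 damage signalling, 5 recombination and 4 Fanconi genes, *Prkdc* of end joining and *Neil3* of base excision, and the lower ones were *Xrcc5*, *Apex1* and *Ercc1*. After adjustment 0 were higher, beside 0.83% of all genes, and 1 was lower, beside 0.816%. The gene that passed was *Ercc1*. Counting only genes whose 3 *Sephs1* siRNA libraries all lay outside the range of the 3 control libraries, 7 repair genes were higher (13.2%, beside 7.8% of all genes) and 2 were lower (3.77%, beside 7.09%). The 7 were *Mdc1*, *Palb2*, *Xrcc2*, *Blm*, *Fancd2*, *Fanci* and *Neil3*, and the 2 were *Rad52* and *Apex1*. In *Palb2* and *Blm* the groups met almost exactly.

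RefSeq promoter windows (250 bases before to 50 after the start, GRCm38.p6) were at hand for 43 of the 53 genes, not for *H2afx*, *Rad50*, *Nbn*, *Rad51d*, *Xrcc2*, *Wrn*, *Fancd2*, *Prkdc*, *Polb* and *Exo1*. E2F transcription factors drive genes needed for S phase and bind sites of the form TTTCCCGC, TTTGGCGC, TTTCGCGC or TTTGCCGC. On either strand, 9 of the 43 windows held such a match (20.9%), beside 4.14% of 11080 windows of genes tested and 2.32% of 27025 windows in all. The pentamer CCAAT was in 25 (58.1%), beside 39.0% of the genes tested and 37.9% of all windows. The letters TTTGAA, the core of the CHR element of G2 and mitotic genes, were in 2 (4.65%), beside 12.0% and 18.1%. The 9 genes with an E2F match were *Chek2*, *Topbp1*, *Clspn*, *Mdc1*, *Bard1*, *Brca2*, *Rad51c*, *Xrcc6* and *Msh6*, with a median log2 fold change of 0.19 (range -0.03 to 0.71). The 34 without one had 0.08 (range -0.38 to 0.69). By route, 4 of 9 damage signalling, 3 of 10 recombination, 0 of 7 Fanconi and 1 of 4 end joining windows held a match. For base excision it was 0 of 9, for mismatch repair 1 of 2 and for nucleotide excision repair 0 of 2. Of the genes higher at an unadjusted p under 0.05 from edgeR, *Mdc1* had a match and *Palb2*, *Fanci* and *Neil3* had none. A link between matches and fold changes was not tested. A match is a description of the sequence and not evidence of binding.

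The matches that lie before the start are shown with their flanks, since they carry the shared letters; capitals mark the match, which reads GCGGGAAA or GCGCGAAA where it is on the other strand. Each is given 5′ to 3′ on the gene's strand.
Chek2, chr5:110839820-110839849, plus strand: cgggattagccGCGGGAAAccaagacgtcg
Topbp1, chr9:103305187-103305216, plus strand: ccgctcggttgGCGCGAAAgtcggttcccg
Mdc1, chr17:35841471-35841497, plus strand: tcttcagcctgTTTCCCGCcggtagcc
Bard1, chr1:71103163-71103192, minus strand: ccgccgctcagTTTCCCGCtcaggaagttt
Brca2, chr5:150522442-150522471, plus strand: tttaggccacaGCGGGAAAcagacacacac
Xrcc6, chr15:82016312-82016341, plus strand: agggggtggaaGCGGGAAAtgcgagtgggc
The match begins 16 bases before the start in *Mdc1*, 46 in *Xrcc6*, 129 in *Topbp1*, 152 in *Chek2*, 168 in *Brca2* and 209 in *Bard1*. These distances are from the start used for the window. In *Chek2*, *Topbp1*, *Bard1*, *Brca2* and *Xrcc6* the annotated gene begins further upstream, from another transcript start, and in *Mdc1* it begins a few bases upstream. Of the 5 genes shown with TTTCCCGC on either strand, *Mdc1* and *Brca2* were positive in every replicate pair, *Chek2* and *Bard1* were positive in pairs 1 and 2 and negative in pair 3 (-0.13 and -0.19), and *Xrcc6* had a log2 fold change near 0.

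**Figure D1:**
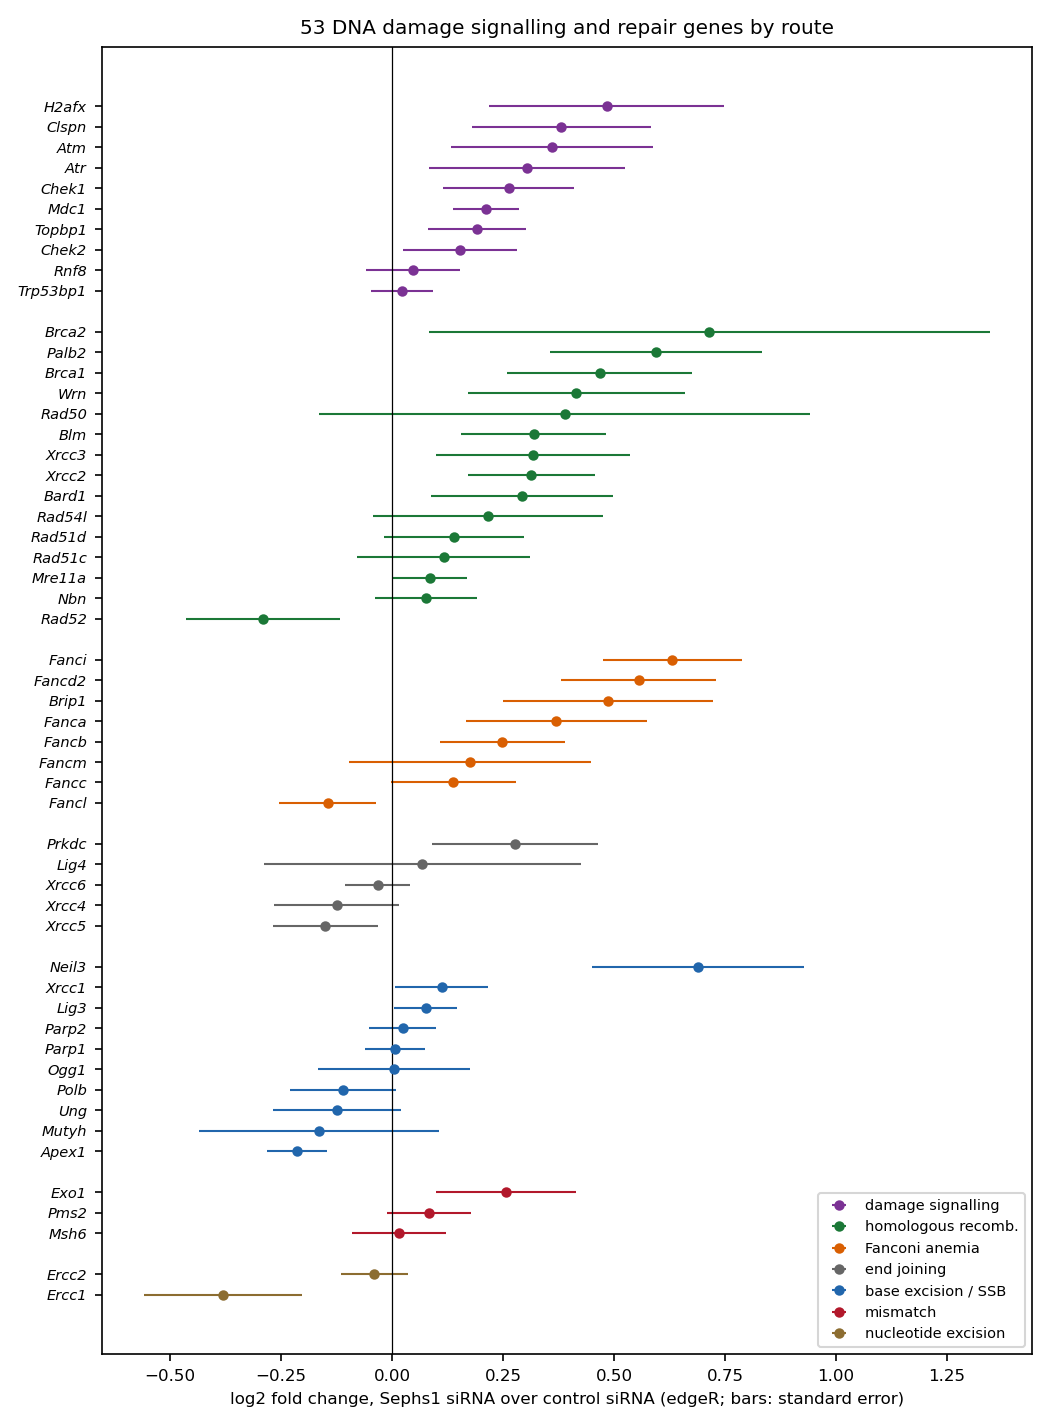
Log2 fold change (*Sephs1* siRNA over control siRNA) of each of the 53 repair genes, grouped by repair route, with bars of 1 standard error from the edgeR fit without the block. All 10 damage signalling genes lie to the right of 0, while the base excision genes run from -0.21 for *Apex1* to 0.69 for *Neil3*.

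The 10 damage signalling genes all had positive log2 fold changes, with a median of 0.24, and 1 of them, *Mdc1*, had an unadjusted p under 0.05. *H2afx*, on chromosome 9 from 44334715 to 44336077 of GRCm38, encodes the histone whose phosphorylated form, γ-H2AX, marks break sites. It stood at 33.7, 44.6 and 51.1 CPM with *Sephs1* siRNA and at 22.5, 26.7 and 43.2 CPM with control siRNA. Each *Sephs1* siRNA library was above the control of the same number, but the groups overlapped because control replicate 3 lay above *Sephs1* siRNA replicate 1. The log2 fold change was 0.48 ± 0.26 (SE, edgeR adjusted p = 0.672, blocked 0.0693). *Mdc1*, the adaptor that binds γ-H2AX and holds repair factors at the break, stood at 33.8, 34.4 and 36.3 CPM with *Sephs1* siRNA and at 28.4, 30.2 and 31.6 CPM with control siRNA. Of the matches printed above, that of *Mdc1* lies closest to the start. Its groups did not overlap and its 3 pair ratios were close to each other, at 0.25, 0.19 and 0.20 on the log2 scale. The overall log2 fold change of *Mdc1* was small at 0.21 ± 0.07 (SE), and it did not pass the adjusted test (edgeR adjusted p = 0.504, blocked 0.0804).

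The kinase genes also had positive log2 fold changes, with a wider spread. *Atm*, which encodes the kinase that answers double-strand breaks, stood at 29.6, 37.5 and 36.6 CPM with *Sephs1* siRNA and at 18.0, 28.9 and 33.9 CPM with control siRNA (log2 fold change 0.36 ± 0.23 SE). *Atr*, whose kinase answers single-stranded DNA at stalled forks, stood at 25.2, 33.6 and 28.4 CPM with *Sephs1* siRNA and at 16.2, 28.9 and 25.6 CPM with control siRNA (log2 fold change 0.30 ± 0.22 SE). In both genes the control of replicate 1 was the lowest library and the groups overlapped. *Chek1*, the checkpoint kinase downstream of ATR, stood at 13.6, 15.9 and 11.6 CPM with *Sephs1* siRNA and at 10.0, 11.5 and 12.7 CPM with control siRNA. *Chek2*, the one downstream of ATM, stood at 10.8, 11.9 and 8.99 CPM with *Sephs1* siRNA and at 9.09, 9.58 and 9.88 CPM with control siRNA. For both, replicates 1 and 2 were higher with *Sephs1* siRNA and replicate 3 was lower, and the log2 fold changes were 0.26 ± 0.15 (SE) for *Chek1* and 0.15 ± 0.13 (SE) for *Chek2*. Adjusted p-values of these 4 kinase genes from edgeR ran from 0.678 to 0.778.

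Claspin (*Clspn*), which brings CHK1 to ATR, had a log2 fold change of 0.38 ± 0.20 (SE), and *Topbp1*, the activator of ATR, one of 0.19 ± 0.11 (SE). *Rnf8*, a ubiquitin ligase that acts after MDC1, had 0.05. *Trp53bp1* encodes 53BP1, which shields break ends and favours end joining. It stood at 54.8, 51.3 and 51.2 CPM with *Sephs1* siRNA and at 54.2, 51.9 and 48.8 CPM with control siRNA. Here the libraries of the 2 groups interleaved, and the log2 fold change was 0.02 ± 0.07 (SE).

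Homologous recombination was represented by 15 genes, 14 of them with a positive log2 fold change, with a median of 0.31. *Brca1*, whose protein starts the resection and loading steps, stood at 13.4, 15.6 and 15.9 CPM with *Sephs1* siRNA and at 7.79, 10.8 and 13.9 CPM with control siRNA. Control replicate 3 lay above *Sephs1* siRNA replicate 1, and the log2 fold change was 0.47 ± 0.21 (SE, edgeR adjusted p = 0.612, blocked 0.0928). *Palb2*, the partner that joins BRCA1 to BRCA2, was the least abundant of the 53 genes, with a mean of 0.555 FPKM with *Sephs1* siRNA and 0.353 FPKM with control siRNA. It stood at 1.66, 2.54 and 2.05 CPM with *Sephs1* siRNA and at 1.24, 1.24 and 1.66 CPM with control siRNA. The groups met almost exactly at *Sephs1* siRNA replicate 1 and control replicate 3, and the log2 fold change was 0.59 ± 0.24 (SE, edgeR adjusted p = 0.565).

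*Brca2*, which encodes a mediator protein of strand exchange, had the largest log2 fold change of the 53 genes and also the largest spread. It stood at 2.96, 11.3 and 10.6 CPM with *Sephs1* siRNA and at 2.02, 4.49 and 8.61 CPM with control siRNA. The replicate 1 libraries of both groups were the lowest, so the log2 fold change of 0.71 had a standard error of 0.63 without the block and 0.22 with it. *Rad50*, the strand-bridging subunit of the MRN complex that tethers break ends, showed the same low replicate 1 libraries, at 10.0 CPM with *Sephs1* siRNA and 7.45 CPM with control siRNA, and had a log2 fold change of 0.39 ± 0.55 (SE). Its partners *Mre11a* and *Nbn* both had 0.08.

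The other recombination genes varied less between replicates. *Wrn* and *Blm*, which encode RecQ helicases, had log2 fold changes of 0.41 and 0.32. *Blm* was higher in each *Sephs1* siRNA library than in any control library, but the groups met almost exactly. It stood at 14.728 CPM in *Sephs1* siRNA replicate 1 and at 14.72 CPM in control replicate 3. *Bard1*, the partner of BRCA1, had 0.29. Among the genes whose proteins support the filament of strand exchange, *Xrcc3* had 0.32, *Xrcc2* 0.31, *Rad51d* 0.14 and *Rad51c* 0.12, and *Rad54l*, a motor protein of strand exchange, had 0.22. *Rad52*, which anneals single strands, was the single recombination gene with a negative value. It stood at 5.96, 4.16 and 6.21 CPM with *Sephs1* siRNA and at 6.91, 6.57 and 6.51 CPM with control siRNA. The groups did not overlap, and the log2 fold change was -0.29 ± 0.17 (SE, edgeR adjusted p = 0.695).

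**Figure D2:**
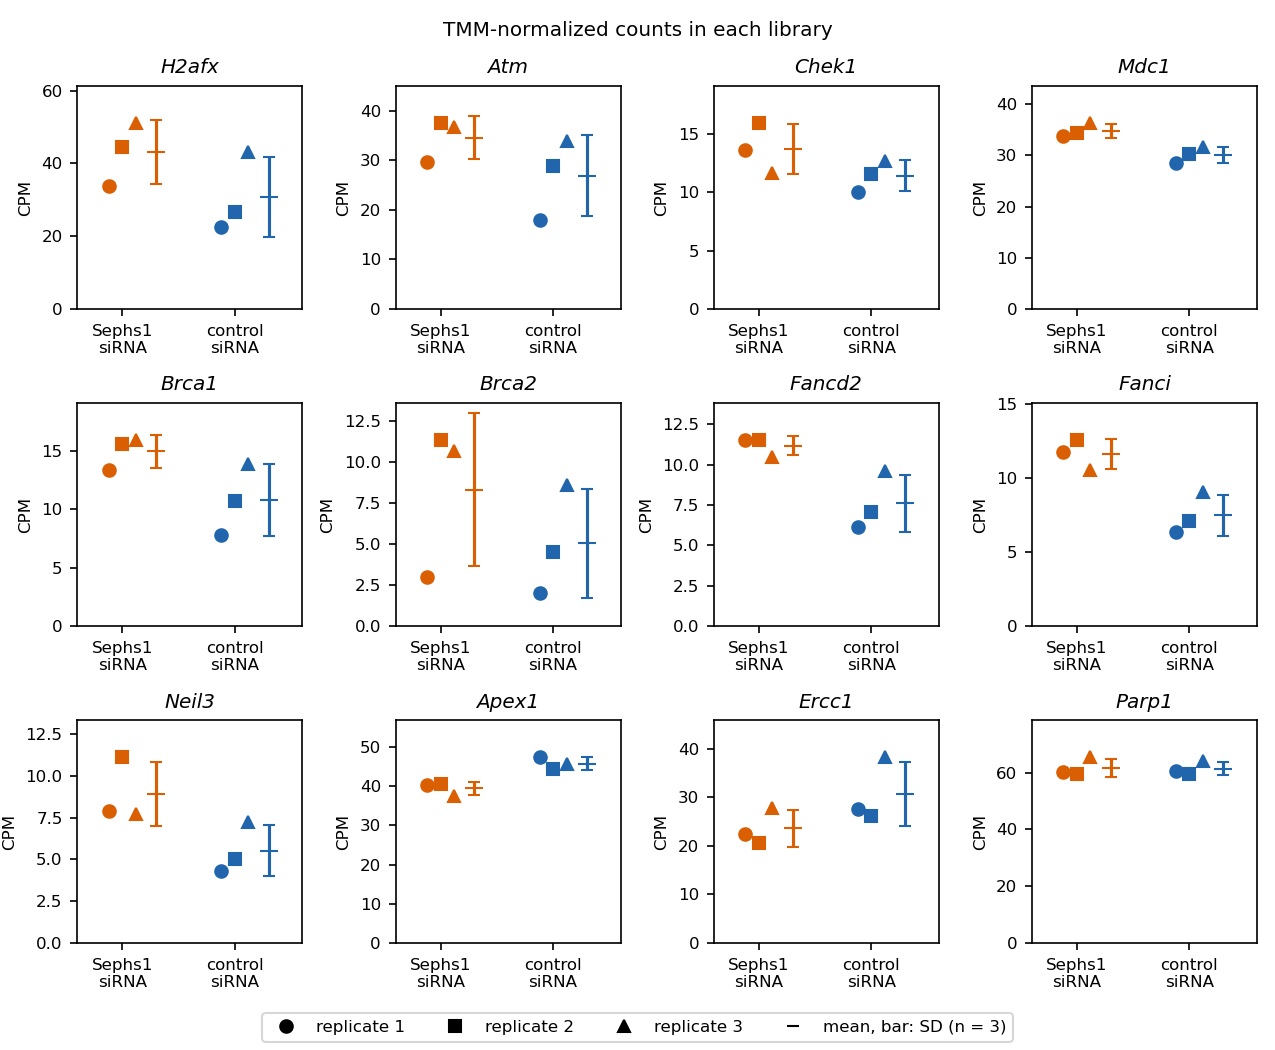
TMM-normalized CPM of 12 repair genes in each library, with *Sephs1* siRNA at the left and control siRNA at the right of each panel, points for replicates and bars for mean ± SD (n = 3). *Fancd2* and *Fanci* are separated between the groups, *Parp1* is level, and *Apex1* is lower in the *Sephs1* siRNA libraries, at 37.6 to 40.6 CPM, than in the control libraries, at 44.2 to 47.4 CPM.

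The Fanconi anemia genes held 2 of the 5 that were higher at an unadjusted p under 0.05, and these encode the 2 partners of one complex. FANCD2 and FANCI form a pair that is ubiquitylated at a crosslink and clamps onto the DNA. *Fancd2* (chromosome 6, 113531640 to 113597020) had levels of 11.5, 11.5 and 10.5 CPM with *Sephs1* siRNA and 6.14, 7.05 and 9.60 CPM with control siRNA. *Fanci* (chromosome 7, 79392312 to 79450266) had 11.7, 12.5 and 10.5 CPM with *Sephs1* siRNA and 6.36, 7.05 and 9.01 CPM with control siRNA. Per length the partners stood close together, *Fancd2* at 2.21 FPKM and *Fanci* at 2.51 FPKM with *Sephs1* siRNA, against 1.46 FPKM for *Fancd2* and 1.56 FPKM for *Fanci* with control siRNA. For both the groups did not overlap although control replicate 3 came close to *Sephs1* siRNA replicate 3. The log2 fold change was 0.56 ± 0.18 for *Fancd2* (SE, edgeR adjusted p = 0.478, blocked 0.115) and 0.63 ± 0.16 for *Fanci* (SE, edgeR adjusted p = 0.392, blocked 0.088). Their pair ratios on the log2 scale were 0.91, 0.71 and 0.13 for *Fancd2* and 0.88, 0.83 and 0.22 for *Fanci*.

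*Brip1* encodes a helicase that works with BRCA1 and had a log2 fold change of 0.49 ± 0.24 (SE). Of the core complex that ubiquitylates FANCD2, *Fanca* had 0.37, *Fancb* 0.25 and *Fancc* 0.14, and *Fancl*, its ligase subunit, had -0.14. *Fancm*, which recruits the core complex to DNA, had 0.18. Of the 8 Fanconi genes 7 were positive, around a median of 0.31.

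The log2 fold changes of the 5 end joining genes centred on a median of -0.03. None had an unadjusted p under 0.05 without the block, and with it *Xrcc5* was lower and *Prkdc* higher at that threshold (edgeR adjusted p = 0.178 for *Xrcc5* and 0.182 for *Prkdc*). The Ku subunits, which cap broken ends, had values near 0 or below it. *Xrcc5* (Ku80) stood at 31.6, 28.1 and 24.1 CPM with *Sephs1* siRNA and at 33.6, 30.5 and 28.9 CPM with control siRNA (log2 fold change -0.15 ± 0.12 SE). *Xrcc6* (Ku70) stood at 23.5, 25.3 and 23.5 CPM with *Sephs1* siRNA and at 23.8, 24.99 and 25.1 CPM with control siRNA (log2 fold change -0.03 ± 0.07 SE). *Prkdc*, the DNA-dependent protein kinase that Ku recruits, stood at 18.1, 21.7 and 18.9 CPM with *Sephs1* siRNA and at 11.8, 19.3 and 17.4 CPM with control siRNA. Its groups overlapped, and its log2 fold change was 0.28 ± 0.19 (SE). The sign of *Xrcc6* turned with limma on FPKM, at 0.02 on the log2(FPKM + 1) scale. The ligation factors *Lig4* and *Xrcc4* had 0.07 ± 0.36 (SE) and -0.12 ± 0.14 (SE).

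Base excision and single-strand break repair held genes at both ends of the range, around a median of 0.01 over 10 genes. *Neil3*, a glycosylase that removes oxidised bases and is made mainly in dividing cells, stood at 7.92, 11.1 and 7.70 CPM with *Sephs1* siRNA and at 4.30, 5.03 and 7.23 CPM with control siRNA. The groups did not overlap, and the log2 fold change was 0.69 ± 0.24 (SE, edgeR adjusted p = 0.503, blocked 0.129), with pair ratios of 0.88, 1.15 and 0.09. *Apex1*, the endonuclease that cuts at the abasic sites glycosylases leave, was the most abundant repair gene with control siRNA, at 33.7 FPKM. It stood at 40.2, 40.6 and 37.6 CPM with *Sephs1* siRNA and at 47.4, 44.2 and 45.6 CPM with control siRNA. The *Sephs1* siRNA libraries were lower in each pair, and the log2 fold change was -0.21 ± 0.07 (SE, edgeR adjusted p = 0.476, blocked 0.0873).

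*Ogg1*, the glycosylase for 8-oxoguanine, the commonest oxidised base, stood at 5.44, 5.75 and 7.71 CPM with *Sephs1* siRNA and at 5.94, 5.89 and 7.001 CPM with control siRNA. *Parp1*, which senses nicks and builds poly(ADP-ribose) on them, stood at 60.2, 59.5 and 65.5 CPM with *Sephs1* siRNA and at 60.6, 59.7 and 64.0 CPM with control siRNA. In both genes the libraries interleaved, with log2 fold changes of 0.00 ± 0.17 (SE) and 0.01 ± 0.07 (SE). The glycosylase genes *Mutyh* and *Ung* had -0.16 and -0.12. The other nick sensor *Parp2* had 0.02, the gap-filling polymerase gene *Polb* -0.11, the ligase gene *Lig3* 0.08 and its scaffold *Xrcc1* 0.11. None of these 6 had an unadjusted p under 0.05.

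Mismatch repair was represented by *Msh6*, *Pms2* and *Exo1*. *Msh6*, a subunit of the dimer that finds base mismatches, stood at 20.9, 20.8 and 20.3 CPM with *Sephs1* siRNA and at 17.9, 20.3 and 23.0 CPM with control siRNA, with all *Sephs1* siRNA libraries inside the control range (log2 fold change 0.02 ± 0.11 SE). *Pms2*, of the nicking complex, had 0.08, and the exonuclease gene *Exo1* had 0.26. Nucleotide excision repair was represented by *Ercc1* and *Ercc2*. *Ercc1*, which with XPF cuts the damaged strand 5′ of an adduct, lies on chromosome 7 from 19344067 to 19356524. It stood at 22.5, 20.6 and 27.8 CPM with *Sephs1* siRNA and at 27.7, 26.3 and 38.3 CPM with control siRNA. Both replicate 3 libraries were the highest of their group, so the groups overlapped, but *Sephs1* siRNA was lower in each pair by like amounts, with log2 ratios of -0.30, -0.35 and -0.46. The log2 fold change was -0.38 ± 0.18 (SE, edgeR adjusted p = 0.627), and with the block *Ercc1* fell, at -0.37 ± 0.06 (SE, edgeR adjusted p = 0.0495). In that fit its edgeR adjusted p was 0.149 without both libraries of replicate 1, 0.162 without those of replicate 2 and 0.0346 without those of replicate 3, a choice made after seeing the data. *Ercc2*, a helicase subunit of TFIIH, had -0.04.

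The shift of the repair genes was not equal in the 3 replicate pairs. The median log2 ratio over the 53 genes was 0.25 in pair 1, 0.28 in pair 2 and -0.01 in pair 3. In pair 1, 36 genes were positive, in pair 2, 43, and in pair 3, 25, beside 50%, 53% and 49.4% of all genes tested. Of the 35 genes that were positive in pairs 1 and 2, 17 were also positive in pair 3 and 18 were negative there. Thus 17 of the 53 genes were positive in all 3 pairs, beside 24.2% of all genes tested. Negative in all 3 pairs were 6, beside 23.6% of all genes. The Fanconi genes had medians of 0.61, 0.45 and 0.00, recombination genes 0.41, 0.51 and 0.03, and damage signalling genes 0.41, 0.30 and 0.02. The medians of end joining and of base excision genes stayed between -0.10 and 0.02 in every pair, while single genes of these routes ranged more widely. *Sephs1* itself was most reduced in pair 3, the pair in which the median of the repair genes was nearest to 0. A link between these values was not tested.

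**Figure D3:**
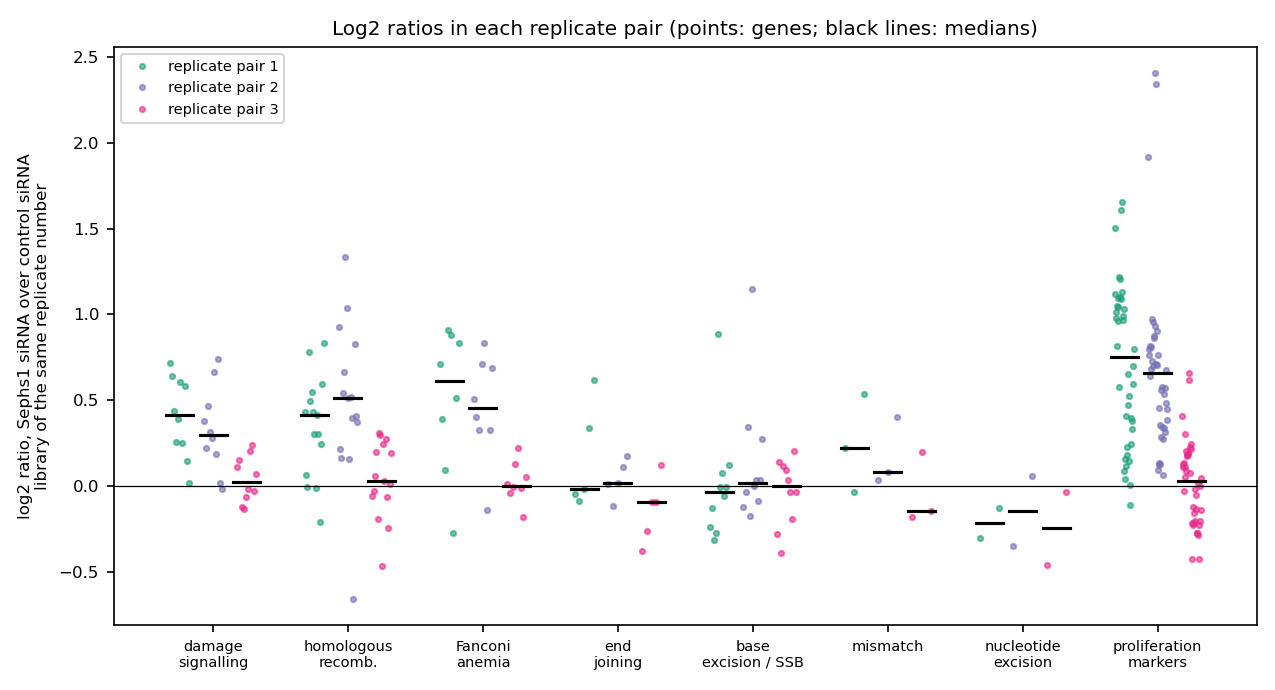
Log2 ratio of *Sephs1* siRNA over control siRNA in replicate pairs 1, 2 and 3 for the genes of each repair route and for proliferation markers. In pairs 1 and 2 the Fanconi, recombination and proliferation genes lie mostly above 0, with proliferation medians of 0.75 and 0.66, and in pair 3 they centre near 0.

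Control replicate 3 stood apart from the other controls. Relative to the mean of the controls, the median log2 level of the Fanconi genes was 0.30, 0.47 and 0.35 in the *Sephs1* siRNA libraries and -0.25, -0.02 and 0.32 in the control libraries. For recombination genes it was 0.16, 0.40 and 0.29 with *Sephs1* siRNA and -0.15, -0.02 and 0.29 with control siRNA. Control replicate 3 thus stood among the *Sephs1* siRNA libraries for these routes. Proliferation markers were 40 genes of replication and mitosis outside the 53, all tested. They moved the same way across libraries, at 0.33, 0.57 and 0.40 with *Sephs1* siRNA and -0.24, -0.07 and 0.32 with control siRNA. Their median log2 fold change was 0.41. At an unadjusted p under 0.05 from edgeR 18 were higher (45%, beside 4.98% of all genes tested) and 0 lower, while 0 passed after adjustment. The list was not uniform. Mitotic genes such as *Ccnb1* (0.65) and *Aurka* (0.74) lay above replication genes such as *Mcm2* (-0.10), *Mcm4* (0.01) and *Pcna* (0.08). The nucleotide reductase genes *Rrm1* (0.39) and *Rrm2* (0.34) were among the 18. Chondrocyte markers were lowest in both replicate 3 libraries, at -0.30 with *Sephs1* siRNA and -0.27 with control siRNA. The part of proliferation and of marker level in the values of the repair genes was not tested.

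**Figure D4:**
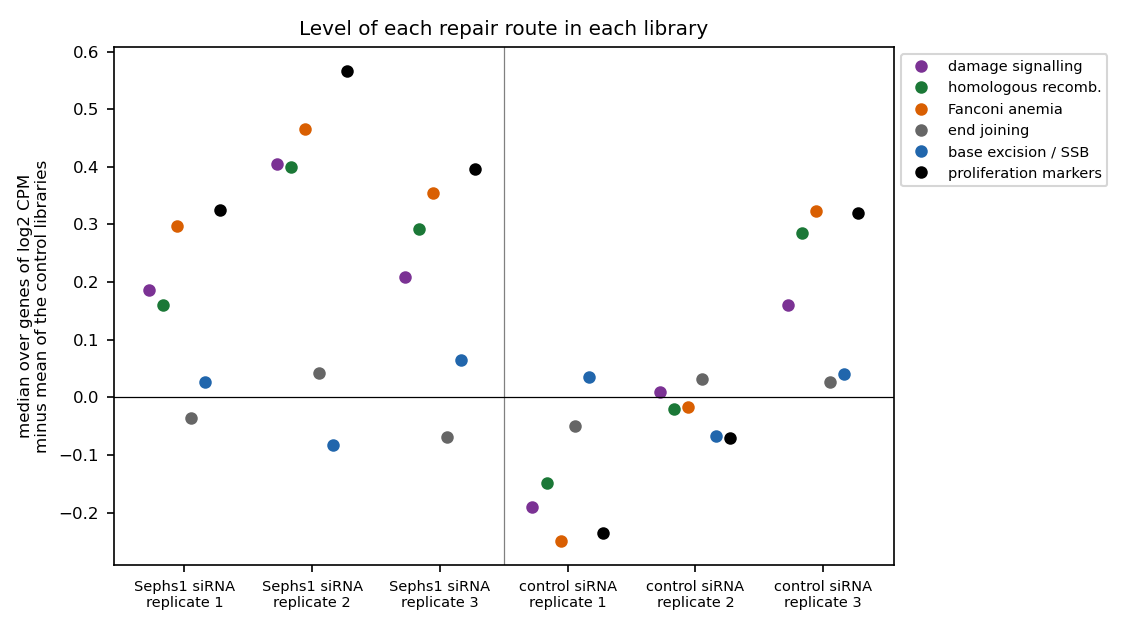
Median over genes of log2 CPM minus the mean of the 3 control libraries, for 5 repair routes and for proliferation markers, in each *Sephs1* siRNA library (left) and each control library (right). Control replicate 3 lies at 0.32 for Fanconi genes and 0.32 for proliferation markers, within the range of the *Sephs1* siRNA libraries for the first.

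Leaving out both libraries of 1 replicate number, an alternative chosen after the data had been seen, changed the calls in the blocked fit. Without replicate 3, 14 repair genes rose and 1 fell at an adjusted p under 0.05 from edgeR, beside 5.49% of all genes called higher and 2.75% called lower. Of these, 5 belonged to damage signalling, 4 to recombination, 4 to the Fanconi route and 1 to base excision, and the gene that fell was *Ercc1*. *H2afx* had the smallest adjusted p (0.0043 from edgeR in that fit), and *Fanci* (0.00885), *Neil3* (0.0103), *Fancd2* (0.0146), *Brca1* (0.0218) and *Atm* (0.0268) were among the others. Without replicate 1 or without replicate 2, 0 repair genes passed. Without the block, the number of repair genes higher at an unadjusted p under 0.05 was 18 when control replicate 3 alone was left out (beside 980 of 14293 genes tested), and 1 when control replicate 2 was (beside 546 of 14277).

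Other repair genes outside the 53 (84, all tested) had a median log2 fold change of 0.05. Of these, 7 were higher (8.33%, beside 4.98% of all genes tested) and 0 lower at an unadjusted p under 0.05 from edgeR. After adjustment 0 passed in either fit. Among the 7 were *Eme1* (0.56), a subunit of a junction-cutting nuclease, *Polq* (0.89), the polymerase of microhomology-mediated end joining, *Ube2t* (0.71), the E2 enzyme of the Fanconi core complex, *Aplf* (0.42), an end joining factor, *Wee1* (0.38), a G2 checkpoint kinase, and *Polh* (0.23), a bypass polymerase. *Polq* was higher in each pair, at 1.44, 0.86 and 0.57. Of 20 listed p53 target genes, which respond when damage activates p53, 13 had positive and 7 negative log2 fold changes, with a median of 0.10. At an unadjusted p under 0.05 from edgeR 2 were higher (10%, beside 4.98% of all genes tested) and 0 lower. The groups overlapped in every one. *Cdkn1a* had 0.10, *Mdm2* -0.04, *Bax* -0.08 and *Gadd45a* -0.22. With the block, 6 were higher (30%, beside 13.1% of all genes) and 2 lower at that threshold. After adjustment in that fit 1 rose (beside 0.83% of all genes), the stress-induced *Sesn2* (log2 fold change 0.42, edgeR adjusted p = 0.0356).

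Transcript length and direction went together among the repair genes. Across the 53 genes, the Spearman correlation of the longest coding transcript's length with the log2 fold change was 0.49, and across the 12994 genes tested that have a length it was 0.22. These points share libraries and are genes, not replicates. Of the 10 longest transcripts, of at least 6572 bases, 0 had a negative log2 fold change and the median was 0.29. Of the 10 shortest, of at most 2136 bases, 7 were negative and the median was -0.12. Damage signalling, recombination and Fanconi genes made up 8 of the 10 longest, and base excision genes 6 of the 10 shortest, so route and length cannot be told apart here.

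**Figure D5:**
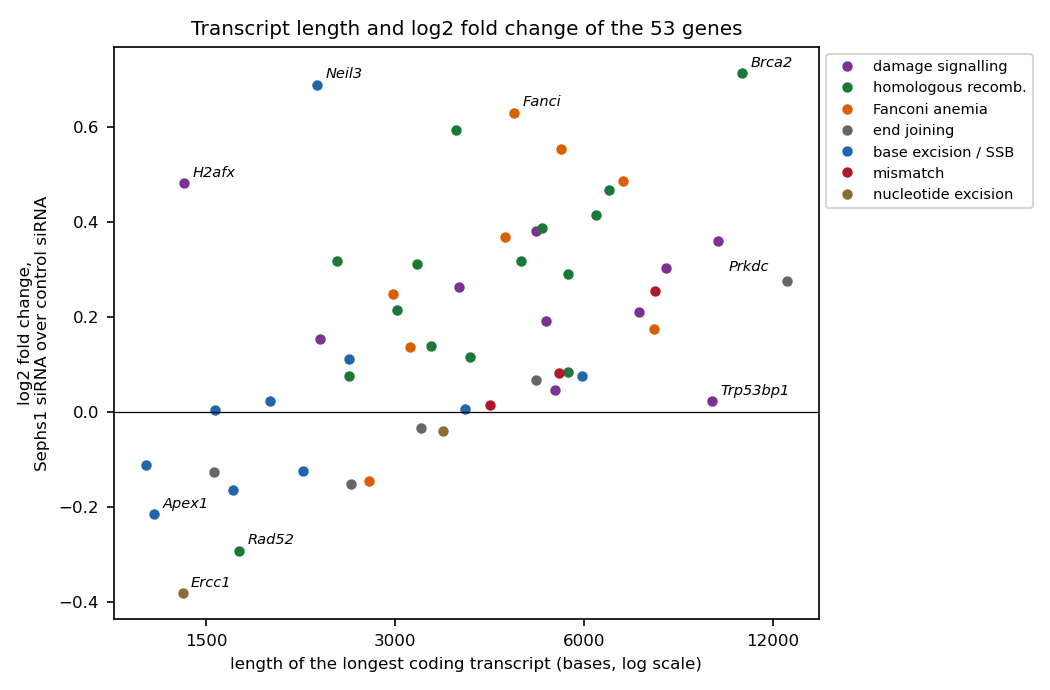
Length of the longest coding transcript in bases (log axis) against the log2 fold change (*Sephs1* siRNA over control siRNA) of the 53 repair genes, coloured by route. The Spearman correlation is 0.49, with short transcripts such as *Apex1* at -0.21 and long ones such as *Brca2* at 0.71.

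Mean control FPKM ran up to 33.7 in *Apex1*, with a median of 3.30 over the 53 genes. *Ercc1* came next, at 21.8 FPKM with *Sephs1* siRNA and 27.3 FPKM with control siRNA, then *H2afx* at 31.9 FPKM with *Sephs1* siRNA and 22.0 FPKM with control siRNA, and *Parp1* was at 16.2 FPKM with *Sephs1* siRNA and 15.5 FPKM with control siRNA. Together the 53 genes took 0.0966%, 0.107% and 0.107% of reads in the *Sephs1* siRNA libraries and 0.0812%, 0.0888% and 0.103% in the control libraries. Of the 53 genes, 23 share exon bases with a gene on the other strand, among them *Fanci* (921 bases with *Polg*), *Apex1* (877 bases with *Pip4p1*) and *Ercc1* (106 bases with *Cd3eap*), and 5 share exon bases with a gene on their own strand. These are *Rnf8* (1542 bases), *Pms2*, *Atr* (178 bases with a small nuclear RNA gene), and *Ercc2* and *Parp1* (11 and 7 bases with miRNA genes). The library kit keeps strand, but whether counting used it is not given in the sources used here, so the values of these genes may hold reads of their neighbours.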

How the data were processed

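RNA of 6 libraries (3 *Sephs1* siRNA, 3 negative control siRNA) was sequenced with a stranded mRNA kit. The authors aligned reads to mm10 with HISAT2 2.1.0 and quantified them with StringTie 1.3.4d, per the submitters' processing notes. The deposited table gives raw read counts for each gene beside FPKM values, which the authors scaled to transcript length and depth. No column belonged to other samples.

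Counts were tested in R 4.3.3 with edgeR 4.0.16 (TMM scaling, quasi-likelihood test, 2-sided, Benjamini-Hochberg over 14223 genes), after leaving out the 10309 genes with 0 reads in a library. Each SE was obtained as the absolute log2 fold change over the root of its F statistic. Alternatives were DESeq2 1.42.0 (NA stayed NA), limma 3.58.1 on log2 FPKM with a pseudocount of 1 or 0.1, RLE scaling, 2 other filters on low counts and leaving out libraries. The fits were tested on simulated data. Totals of 58214060 to 80887889 reads per library set the precision, and every pair of libraries within a group differed by more than counting noise. Libraries with the same replicate number correlated at 0.47, 0.235 and 0.451 in their deviations from the group means, and the highest value across numbers was -0.0265. Within a group the deviations of a gene sum to 0, so positive values within numbers push those across numbers below 0. The negative values across numbers are therefore not separate support for pairing. All 3 values within numbers were above 0.1, so numbers were taken to pair libraries, from the data and not from a label.

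The repair genes and the lists were chosen with earlier results of these data known. Every repair gene is accounted for. Values in each library are given for those at an unadjusted p under 0.05, those at an adjusted p under 0.05 with the block, and *Atm*, *Atr*, *Chek1*, *Chek2*, *H2afx*, *Trp53bp1*, *Brca1*, *Brca2*, *Rad52*, *Fancd2*, *Xrcc5*, *Xrcc6*, *Prkdc*, *Parp1*, *Ogg1*, *Msh6* and *Ercc1*. *Rad50* was added after its values were seen. Coordinates and promoters are from RefSeq (GRCm38.p6), and lengths and exon overlaps from GENCODE M21. A planned count of phosphorylation motifs in proteins was not made. Some of the other repair genes are counted but not reported by name here.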

Additional observations from a re-analysis of the deposited data

How the results depend on the processing

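Of 352 values of 22 named genes under 16 alternatives, 323 kept their direction and their side of the threshold, 18 changed sign, 11 newly passed and 0 no longer passed. The sign changes were all in genes near 0. *Ogg1* was -0.0050 with the replicate block, and *Xrcc6* was 0.023 with limma on log2(FPKM + 1) and 0.025 on log2(FPKM + 0.1). Leaving out 1 library gave *Trp53bp1* -0.025 to 0.048, *Msh6* -0.080 to 0.11, *Ogg1* -0.17 to 0.090 and *Parp1* -0.038 to 0.038. With the block and without both libraries of replicate 1, *Parp1* was -0.00043 and *Msh6* -0.089, and without those of replicate 3, *Trp53bp1* was -0.00016, *Ogg1* -0.081 and *Parp1* -0.0067. The number of all genes at an adjusted p under 0.05 was 2 in edgeR without the block, 234 with the replicate block, 211 in DESeq2, 0 with limma on log2(FPKM + 1) and 1 on log2(FPKM + 0.1). Repair genes at an adjusted p under 0.05 numbered 0, and 1 with the block or in DESeq2. Those lower at an unadjusted p under 0.05 numbered 1, 2 in DESeq2 and 3 with the block, and those higher numbered 5, 6 in DESeq2 and with limma on log2(FPKM + 0.1), 7 on log2(FPKM + 1), and 16 with the block. Of all 14223 genes tested, 709 were higher and 517 lower in the main fit at that threshold. The counts were 719 and 533 in DESeq2, and 1867 and 1595 with the block. Limma gave 1002 higher and 290 lower on log2(FPKM + 0.1), and 1021 and 288 on log2(FPKM + 1). Leaving out 1 library gave 0 to 3 genes, 1 to 18 repair genes higher and 1 to 2 lower. With the block and without 1 replicate of both groups, chosen after seeing the data, these were 16, 81 and 1187 genes without replicate 1, 2 and 3, 0 to 15 repair genes at an adjusted p under 0.05, 7, 10 and 28 higher and 2 to 4 lower at an unadjusted p. In these fits 1041 of 14522, 1209 of 14351 and 2097 of 14411 genes tested were higher at an unadjusted p under 0.05. Those lower numbered 1043, 1020 and 1564. The count of repair genes higher was 2 without *Sephs1* siRNA replicate 2 or control replicate 1, 1 without control replicate 2 and 18 without control replicate 3. When 1 library was left out, 429 to 980 of all genes tested were higher and 299 to 626 lower at that threshold. The median log2 fold change of the repair genes was 0.153 in the main fit. It ran from 0.086 without control replicate 1 to 0.284 with the block and without replicate 3. Each move was less than the spread between pairs (SD 0.163). That spread is larger than the main median itself, so the comparison cannot show that the median was stable. The cause of these changes was not tested. Precision was set by 3 libraries in each group, with a median SD of log2 CPM within groups of 0.199 over the 53 genes.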
